A study of Mus musculus with 39 samples.

Results

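The ribosomal protein genes were read in single mouse epiblasts and in epiblast stem cell lines (EpiSCs), with and without *Stat3*. They were taken by symbol as the rows named Rpl or Rps followed by a number, with *Rpsa*, *Rplp0*, *Rplp1*, *Rplp2* and the paralogs that end in l or l1, and without the pseudogene rows named -ps and the Rps6k kinases. This gave 89 of the 47643 genes listed in both count tables, of which 53 belong to the large and 36 to the small subunit. By the GENCODE vM21 annotation 84 of the 89 are protein coding, and the other 5 (*Rps4l*, *Rps3a2*, *Rps3a3*, *Rpl6l* and *Rps12l1*) are typed as processed pseudogenes despite their names.

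Each epiblast library held the RNA of 1 epiblast from matings of *Stat3* heterozygous mice on the outbred CD1 background, genotyped on extraembryonic tissue of the same embryo. In the null allele a neomycin resistance gene takes the place of exons 20 to 22, in every tissue of the embryo. At embryonic day 5.5 (E5.5) 4 null and 2 wild-type (WT) epiblasts were read, at E6.5 8 and 9 of them and at E7.5 3 and 9, and the extraembryonic ectoderm and visceral endoderm had been removed by hand. EpiSCs, self-renewing cells derived from the epiblast and kept in FGF2, activin A and the tankyrase inhibitor XAV, were read in 2 null and 2 WT lines with another library kit, so their levels stand beside those of epiblasts without a test. There was 1 library per embryo and per line, and p-values measure the spread between these libraries.

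Ribosomal proteins assemble with ribosomal RNA in the nucleolus into the large subunit, which joins amino acids, and the small subunit, which decodes the messenger RNA. Their genes are among the most transcribed of growing cells, and many of their messenger RNAs begin with a run of pyrimidines (the TOP motif) through which nutrient signalling sets their translation. Over evolution these messenger RNAs were copied back into the mouse genome many times, and the resulting processed pseudogenes can differ from the spliced parent by so few bases that a short read matches both. STAT3 is a transcription factor that carries the signal of LIF and related cytokines.

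Total counts lay between 22941210 and 127583699 per library. *Stat3*, most of whose exons the null allele keeps, was counted at 9.21 to 22.6 counts per 1000000 of the library (CPM) in E5.5 null against 39.3 and 49.4 CPM in E5.5 WT epiblasts, at 1.41 to 7.59 against 5.84 to 27.2 CPM at E6.5, at 1.22 to 1.48 against 4.80 to 25.3 CPM at E7.5, and at 3.17 and 3.52 against 17.8 and 23.0 CPM in EpiSCs. E5.5 null 1 held *Pou5f1*, an epiblast gene, at 0.654 CPM, while no other E5.5 library read under 100.6 CPM. Its 12 extraembryonic ectoderm markers summed to 1847 CPM against at most 726 CPM, so in these genes the library labelled E5.5 null 1 went against its label. Its 10 epiblast markers summed to 1880 CPM against 2408 to 4957 CPM in the other E5.5 libraries. Among these markers the lowest E5.5 null value was 0 CPM for *Nanog*, *Fgf5* and *Otx2*. It was 151, 89.7, 313 and 217 CPM for *Utf1*, *Pou3f1*, *L1td1* and *Epcam*. All 18 visceral endoderm markers had counts in each epiblast group, and their sum ran from 6246 to 12735 CPM in the other 5 E5.5 libraries, from 96.2 to 7310 CPM at E6.5 and from 84.8 to 4884 CPM at E7.5. In bulk samples, fewer cells of a type and less RNA per cell cannot be told apart.

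A read that lies within 1 coding exon matches a member and its most read copy alike unless it covers a base that differs. The coding sequences were therefore aligned first. Reads across exon junctions or outside the coding sequence were not examined. *Rpl26*, a large subunit protein, and the processed pseudogene *Gm15772* (chr5:3236431-3236868, plus strand, GRCm38) shared all 438 aligned coding bases but 2, the substitutions C177T and T288C, given as the base of the member, its coding position counted from 1 at the A of the start codon, and the base of the copy. *Rps2*, which lines the messenger RNA entry of the small subunit, and *Rps2-ps13* (chrX:52898588-52899469, plus strand) differed at 7 of 882 bases. *Rpl7a*, of the large subunit, and *Rpl7a-ps11* (chrX:166854211-166855011, plus strand) differed at 2 of 801 bases, A186G and A747C, and were identical over a run of 560 bases. The windows of 29 bases below lie on the plus strand of exons of *Rpl26* (chr11:68903284-68903312), *Rps2* (chr17:24720642-24720670) and *Rpl7a* (chr2:26911469-26911497) and on the matching stretches of the copies, with the differing base in capitals (T288C, G300A and A186G).
Rpl26: ggcacaaccgtccaTgtgggcatccaccc
Gm15772: ggcacaaccgtccaCgtgggcatccaccc
Rps2: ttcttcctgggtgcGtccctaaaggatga
Rps2-ps13: ttcttcctgggtgcAtccctaaaggatga
Rpl7a: ccccgctacatcagActgcagcggcaaag
Rpl7a-ps11: ccccgctacatcagGctgcagcggcaaag

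A copy was any other listed gene that matched at least 80% of a member's coding sequence at 95% identity or more. By that rule 80 of the 89 members had at least 1 copy among 491 copy rows, 464 of them pseudogenes, and 9 had none, among them *Rpl3l*, *Rpl8*, *Rpl39l*, *Rps3*, *Rps4l*, *Rps9*, *Rps21* and *Rps27l*. In epiblasts the copies took a median of 16.3% of the counts of a member and its copies together. They took over 50% for 15 members, over 10% for 49 and under 1% for 5. The share reached 98.7% for *Rpl29*, 97.7% for *Rpl21*, 95.9% for *Rpl6l*, 90.9% for *Rpl34*, 84.4% for *Rpl26* and 80.9% for *Rpl7a*. For *Rpl6l* the most read copy was the member *Rpl6*, at a mean of 920 CPM. *Rps12l1* was at 0 in every library while its copies, which include *Rps12*, were read. For the pairs *Rps12* and *Rps12-ps3*, *Rpl15* and *Rpl15-ps3*, and *Rps27* and *Rps27rt*, no coding base differed.

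The counts of *Rpl26* and *Gm15772* moved against each other from library to library. In 27 of the 35 epiblasts *Rpl26* was counted at 18.8 to 51.7 CPM and *Gm15772* at 805 to 1208 CPM. In 6 epiblasts (E5.5 WT 2, E6.5 null 5, E6.5 WT 4, E7.5 null 3, E7.5 WT 7 and E7.5 WT 8) *Rpl26* stood at 469 to 520 CPM and *Gm15772* at 490 to 554 CPM. In E7.5 WT 4 and E7.5 WT 5 the order turned, with *Rpl26* at 899 and 924 CPM and *Gm15772* at 41.7 and 40.4 CPM. The sum of *Rpl26* and its copies ran only from 830 to 1244 CPM over the same 35 libraries. The middle level was found at each stage and in both genotypes, while the turned order was found only in E7.5 WT libraries.

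*Rps2* and *Rps2-ps13* moved against each other as well, and mostly by stage. At E5.5 *Rps2* was counted at 342, 358, 291 and 334 CPM in null and at 337 and 309 CPM in WT epiblasts, with *Rps2-ps13* between 269 and 323 CPM. At E6.5 it was counted at 521 to 728 CPM (median 673) in null and at 627 to 804 CPM (median 736) in WT epiblasts, and *Rps2-ps13* stood between 51.8 and 68.3 CPM. At E7.5 the null epiblasts read 792, 775 and 423 CPM and the WT epiblasts 390 to 842 CPM (median 752). E7.5 null 3, WT 6 and WT 8, the libraries with *Rps2* at 423, 390 and 415 CPM, were also those with *Rps2-ps13* at 341, 400 and 391 CPM, against 49.6 to 69.5 CPM in the other 9. Summed with all copies, *Rps2* ran from 775 to 1216 CPM over the 35 epiblasts. *Rpl7a* ran from 29.8 to 461 CPM alone and from 626 to 1025 CPM summed.

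*Rplp0*, the protein that anchors the stalk of the large subunit, ran from 1100 to 2167 CPM, and its copy *Gm8730*, which differs at 12 of 954 coding bases, stood at 12.4 to 32.5 CPM in 11 epiblasts, at 188 to 297 CPM in 15 and at 433 to 615 CPM in 9. *Rps3a1*, of the small subunit, has *Rps3a2* and *Rps3a3*, themselves members, among its copies, and with all of them summed to between 561 and 828 CPM. Over the members with copies, the median SD within groups (log2 of CPM + 1) was 0.199 for the gene alone and 0.16 for the sum, and it was smaller summed in 65 of 80. Members that are copies of each other have the same sum and were each counted. These were *Rpl6* and *Rpl6l*, *Rps12* and *Rps12l1*, and *Rps3a1*, *Rps3a2* and *Rps3a3*. Of the 9 members with an SD over 0.5 alone, 1 (*Rpl10l*) was still over it summed. *Rpl26* went from 1.70 to 0.123, *Rps3a3* from 1.95 to 0.121 and *Rpl7a* from 0.711 to 0.162. Summing with copies was chosen after the data were seen, and 9 of the 491 copies matched on the opposite strand only. How the reads were divided between a member and its copies was not tested.

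**Figure D1:**
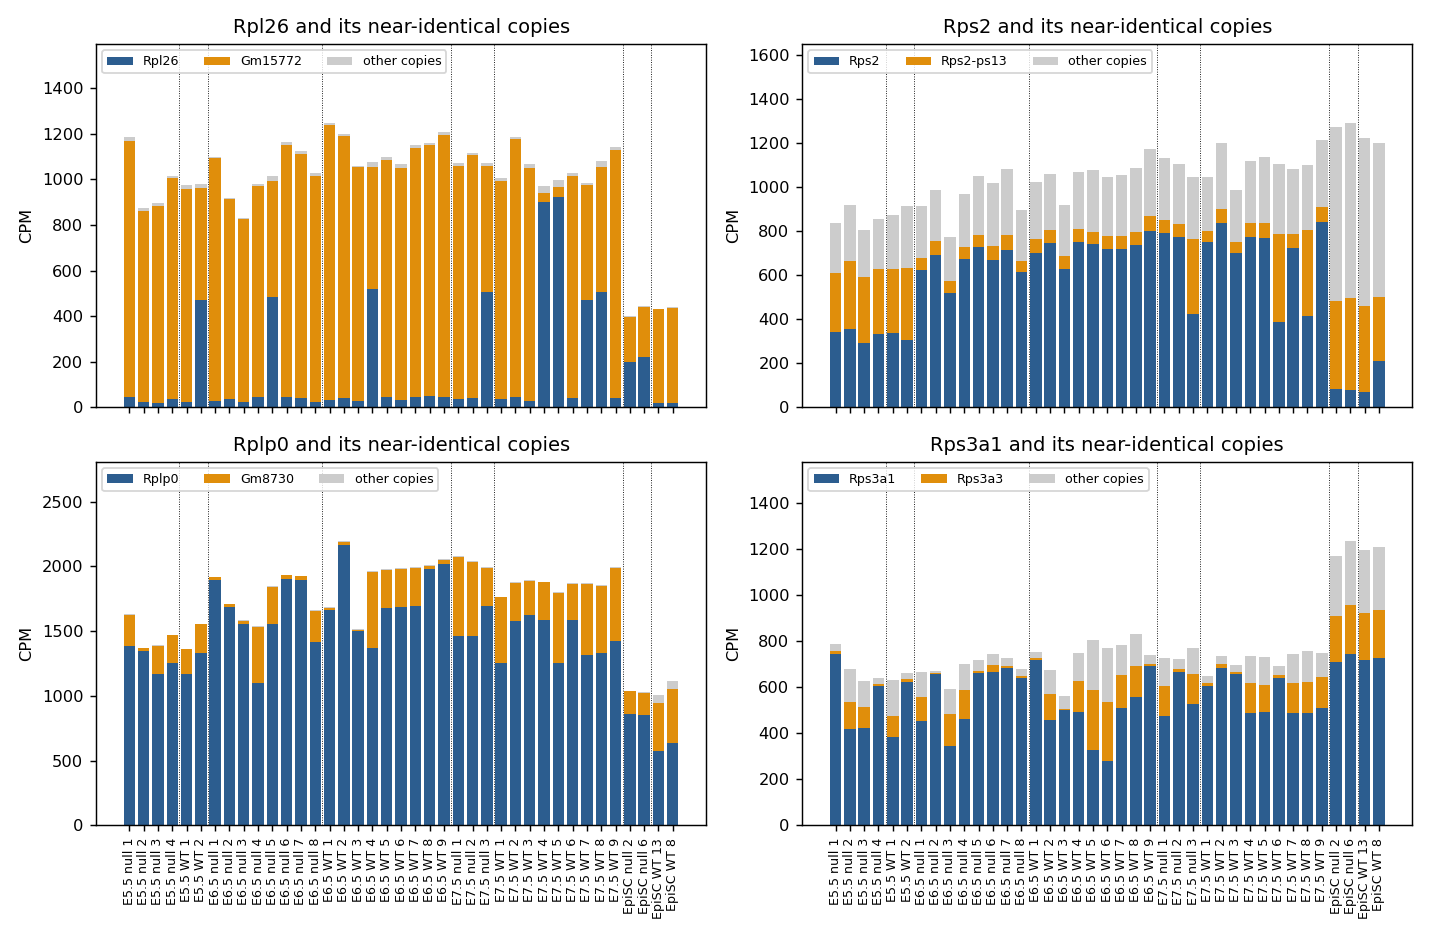
CPM (y axis) on *Rpl26*, *Rps2*, *Rplp0* and *Rps3a1* (dark blue), on the most read copy of each (orange) and on the other copies (grey), stacked for each of the 39 libraries (x axis, groups parted by dotted lines). The bars change colour from library to library while their height changes less, as for *Rpl26* with a sum of 830 to 1244 CPM in epiblasts.

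**Figure D2:**
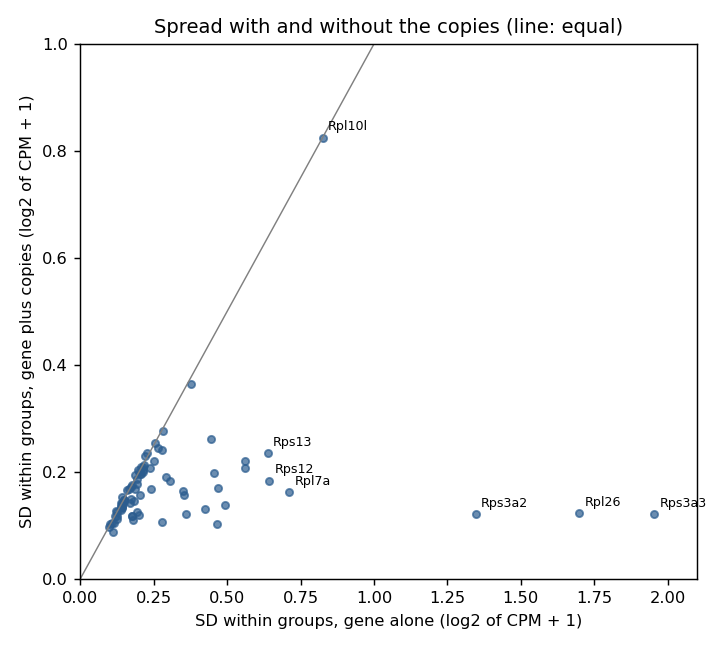
SD within groups of log2 (CPM + 1) for each member with copies and a mean over 1 CPM, for the gene alone (x axis) and summed with its copies (y axis), with a grey line where both are equal. *Rps3a3* at 1.95, *Rpl26* at 1.70 and *Rps3a2* at 1.35 lie far below the line, and 65 of the 80 members with copies have a smaller SD summed.

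The share of a library's counts that fell on the members lay between 2.60% and 4.09% in epiblasts and between 2.87% and 2.95% in EpiSCs. At E5.5 the share was 3.12% ± 0.317 (SD, n = 4) in null and 3.23% ± 0.172 (SD, n = 2) in WT epiblasts. At E6.5 it was 3.38% ± 0.427 (SD, n = 8) in null and 3.77% ± 0.235 (SD, n = 9) in WT epiblasts, and at E7.5 3.76% ± 0.0637 (SD, n = 3) and 3.61% ± 0.166 (SD, n = 9). Null and WT overlapped at each of these stages. The lowest share of all, 2.60%, was in E6.5 null 3, which had the highest visceral endoderm marker sum of its stage (7310 CPM), and the lowest E6.5 WT share, 3.22%, was in WT 3 with the highest marker sum among E6.5 WT (5956 CPM). E6.5 null 4 and null 8, with marker sums of 5408 and 4636 CPM, had 3.29% and 3.22%, and the other 8 E6.5 WT had at most 1699.8 CPM. E6.5 null 2 had the next lowest share of the stage, 3.05%, at a marker sum of only 575 CPM. E6.5 null 3 and null 2 also had the fewest genes detected, 15171 and 15531 against 19178 to 21616 in the other E6.5 null, and WT 3 had 17961 against 19038 to 22310 in the other E6.5 WT. The part of these markers and of the number of genes detected in the share was not tested.

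**Figure D3:**
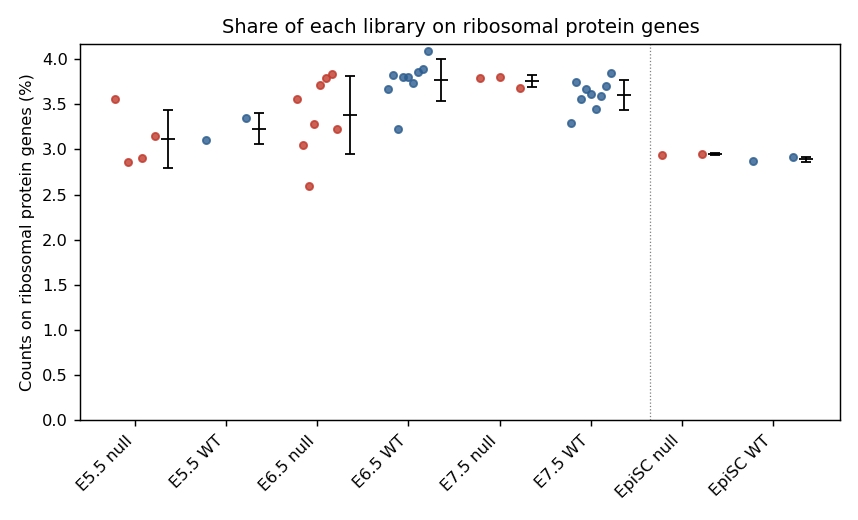
Percent of the counts of each library (y axis, from 0) on the 89 ribosomal protein genes, by stage and genotype (x axis), with null libraries in red, WT libraries in blue and the mean ± SD as a black bar beside each group. Null and WT overlap at each epiblast stage, E6.5 null spreads most (2.60% to 3.84%), and the 4 EpiSC libraries lie between 2.87% and 2.95%.

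Per kilobase of the principal transcript, the stalk proteins and a few others led. The mean over epiblasts was 1858 CPM per kilobase for *Rplp1*, 1280 for *Rpl8*, which lies near the peptidyl transferase centre, 1136 for *Rplp0*, 1097 for *Rpl19*, 1064 for *Rpl13a* and 1017 for *Rpsa*, with SDs of 308, 126, 192, 106, 139 and 93.7 over the 35 libraries. Of the neighbours named here, *Rplp1* and *Rpl8* differed by more than these SDs, and those from *Rpl8* to *Rpsa* by less than the larger SD of each pair. Of the 89 members 73 averaged over 100 CPM and 5 under 10 CPM in epiblasts. In EpiSCs, read with another kit, 27 of the 86 members with a mean over 1 CPM were lower and 21 higher in every library than in every epiblast, against 8.8% lower and 12.9% higher among all 16021 genes with a mean over 1 CPM in either table. *Rpl36a* stood at 26.8 to 33.3 CPM in EpiSCs against 120.0 to 245 CPM in epiblasts, and *Rps27* at 475 to 572 CPM against 25.4 to 139 CPM.

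Paralogs stood below their partners in all 8 pairs. Per kilobase the mean epiblast level was 225 for *Rpl22* and 66.0 for *Rpl22l1*, 430 for *Rpl36a* and 117 for *Rpl36al*, 745 for *Rpl7* and 52.3 for *Rpl7l1*, 216 for *Rps27* and 66.8 for *Rps27l*, and 450 for *Rps4x* and 123 for *Rps4l*. *Rpl10l* and *Rpl39l*, known from testis, averaged 5.11 and 1.07 CPM per kilobase against 561 for *Rpl10* and 165 for *Rpl39*, and *Rpl3l*, a muscle paralog, 0.307 against 451 for *Rpl3*. In EpiSC libraries *Rpl10l* and *Rpl39l* had no count, which allows up to 3 counts a library, and *Rps4l* was at 0.110 to 0.376 CPM.

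Between E5.5 and E6.5 of WT embryos, ribosomal protein genes of both subunits were counted higher. Counts were scaled by TMM and each gene was tested by edgeR (quasi-likelihood), and a gene passed at an adjusted p under 0.05 over all genes tested (Benjamini-Hochberg). Of 88 members tested 15 rose and 1 fell, against 5.15% higher and 4.09% lower among all 20763 genes. At an unadjusted p under 0.05 there were 39 higher and 2 lower, against 13.2% and 9.79% of all genes, and without overlap between the stages 17 higher and 2 lower, against 7.02% and 9.63%. With an absolute log2 fold change over 1 as well, the rule of the study, *Rps2* and *Rpl7a* were called higher, against 2.52% of all genes higher and 2.63% lower. The median log2 fold change was 0.25 over the members and 0.10 over all genes. Of the large subunit 11 of 53 rose, and of the small subunit 4 of 35 rose and 1 fell. With the size factors of DESeq2 (RLE) in place of TMM, 8 rose and 2 fell, the median of the members was 0.19 and that of all genes 0.03, and the test of DESeq2 passed 16 higher and 4 lower. Visceral endoderm markers summed to 6246 and 7933 CPM in E5.5 WT and to 96.2 to 5956 CPM in E6.5 WT epiblasts, and their part in these changes was not tested.

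*Rps2* had the smallest p and rose from 337 and 309 CPM in the 2 E5.5 WT to 627 to 804 CPM in the 9 E6.5 WT epiblasts (log2 fold change 1.21 ± 0.10, SE, adjusted p = 6.12e-05 by edgeR), with no overlap. Summed with its copies the change was 0.28 ± 0.08 (adjusted p = 0.0487 by edgeR). *Rpl12*, part of the base of the stalk, read 386 and 394 CPM at E5.5 and 427 to 556 CPM (median 513) at E6.5 (0.42 ± 0.09, adjusted p = 0.0138 by edgeR). *Rps14*, of the decoding platform, read 221 and 214 CPM at E5.5 and 256 to 316 CPM at E6.5 (0.45 ± 0.09, adjusted p = 0.0104 by edgeR). Neither gene had overlapping groups, and both also passed summed with copies. *Rplp0*, at 1171 and 1333 CPM and then 1370 to 2167 CPM (median 1690), rose by 0.52 ± 0.14 (adjusted p = 0.0324 by edgeR). *Rpl14*, *Rpl13a*, *Rpl5*, *Rpl8* and *Rpl23a* rose by 0.29 to 0.44, and among the others that passed were *Rpl6*, *Rpl15*, *Rpl7a* and *Rpl27*. Summed with copies 16 members passed, 13 of them the same, with *Rpl7a*, *Rpl15* and *Rpl27* lost and *Rpl17*, *Rpl29* and *Rpl6l* gained. *Rpl6l* and *Rpl6* have the same sum, which the 16 therefore count under both names. *Rpl7a*, at 36.7 and 34.7 CPM at E5.5 and 58.2 to 307 CPM (median 216) at E6.5, rose by 2.49 ± 0.64 alone and was 0.36 ± 0.13 summed (adjusted p = 0.110 by edgeR). The E5.5 group held 2 libraries, and leaving out 1 library at a time moved the number of members that passed to between 1 (without E5.5 WT 1) and 27 (without E6.5 WT 3). It was 3 without E5.5 WT 2 and 6 to 13 without any other E6.5 WT library.

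From E6.5 to E7.5 of WT embryos the members were counted lower. Of 86 tested 35 fell and none rose by edgeR, against 12.3% lower and 12.7% higher among all 17191 genes, with a median log2 fold change of -0.15 against 0.01. At an unadjusted p under 0.05 none was higher and 46 were lower (18.3% and 17.8% of all genes), and DESeq2 passed 39, all lower. Of the large subunit 26 of 51 fell and of the small subunit 9 of 35. The changes were small. *Rpl24*, of the bridge between the subunits, read 249 to 298 CPM (median 279) at E6.5 and 222 to 271 CPM (median 249) at E7.5, and fell by 0.25 ± 0.05 on the log2 scale (SE, adjusted p = 0.000681 by edgeR), with the groups overlapping. *Rpl4*, *Rpl5*, *Rpl6*, *Rpl8* and *Rpl22* fell by 0.16 to 0.24, and *Rplp0* by 0.36 ± 0.08. Summed with copies 37 members fell, 30 of them the same, and *Rplp0* (-0.13 ± 0.05, adjusted p = 0.0764 by edgeR) was among the 5 lost. The 37 again count the sum of *Rpl6* under *Rpl6l* as well. Leaving out 1 library at a time gave 32 to 48 (48 without E6.5 WT 3). Visceral endoderm markers summed to 96.2 to 5956 CPM at E6.5 and 493 to 4884 CPM at E7.5, and epiblast markers to 5373 to 8252 CPM and 1320 to 6958 CPM, and their part in these falls was not tested.

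The largest falls were those of the paralogs *Rpl10l* (chr12:66283379-66284401, minus strand) and *Rps4l* (chr6:148354656-148355598, plus strand). *Rps4l* read 156 and 177 CPM in E5.5 WT, 101 to 218 CPM (median 120) in E6.5 WT and 50.6 to 67.5 CPM (median 60.5) in E7.5 WT epiblasts, and fell between the last 2 stages by 1.296 ± 0.136 on the log2 scale (adjusted p = 4.70e-06 by edgeR). It was the only member whose E6.5 and E7.5 WT libraries did not overlap, against 1.52% of all genes higher and 0.855% lower. With an absolute log2 fold change over 1, *Rps4l*, *Rpl10l* and *Rpl7a* were called lower, against 5.74% of all genes higher and 3.09% lower. *Rpl10l* read 23.2 and 22.2 CPM in E5.5 WT, 0.721 to 36.1 CPM (median 2.86) in E6.5 WT and 0 to 1.20 CPM in E7.5 WT epiblasts, where 7 of the 9 had no count. Its fitted change from E6.5 to E7.5 was -5.66 ± 1.18 (adjusted p = 0.00163 by edgeR), and -4.53 ± 1.07 (adjusted p = 0.00325 by edgeR) without E6.5 WT 3, the library at 36.1 CPM. Without it *Rpl10l* also passed from E5.5 to E6.5 (-2.78 ± 0.53, adjusted p = 0.00287 by edgeR), where the fit of all libraries gave -1.66 ± 1.05 (adjusted p = 0.390 by edgeR).

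**Figure D4:**
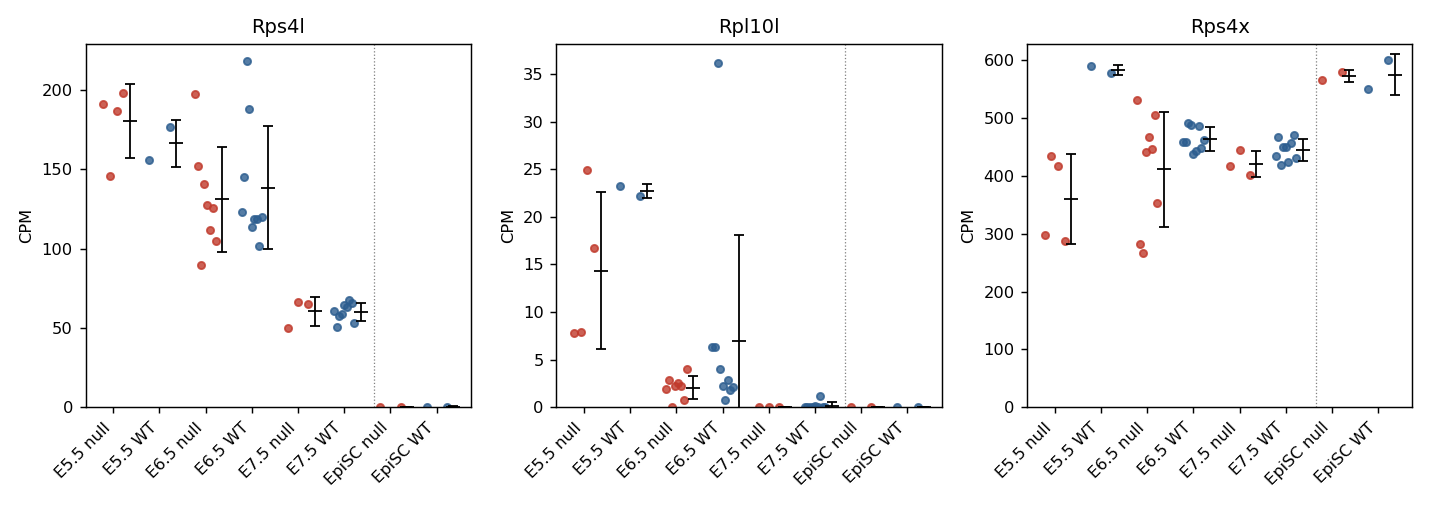
CPM (y axis) of *Rps4l*, *Rpl10l* and *Rps4x* in each library by stage and genotype (x axis), with null in red, WT in blue and mean ± SD as black bars. *Rps4l* steps down to 49.98 to 67.5 CPM at E7.5 and is near 0 in EpiSCs, *Rpl10l* is at most 1.20 CPM at E7.5, and *Rps4x* is lowest in E6.5 null 3 at 267 CPM.

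Null embryos took the step from E5.5 to E6.5 with 2 members passing, both higher, of 87 tested, against 2.46% higher and 1.31% lower among all 18352 genes. *Rps2* rose from 291 to 358 CPM in 4 epiblasts to 521 to 728 CPM in 8 (0.97 ± 0.10, adjusted p = 0.000260 by edgeR) and *Rpl7a* from 41.0 to 80.1 CPM to 113 to 424 CPM (1.86 ± 0.30, adjusted p = 0.00622 by edgeR). At an unadjusted p under 0.05 there were 6 higher and 2 lower (10.4% and 7.92% of all genes), and 3 were higher and 1 lower without overlap (3.19% and 2.07%). With an absolute log2 fold change over 1 *Rpl7a* alone was called, against 1.22% of all genes higher and 0.757% lower. Neither gene passed summed with copies (0.15 ± 0.08 and 0.22 ± 0.12). The median over the members was 0.08 against 0.02 over all genes. Without the library labelled E5.5 null 1 it was 0.19 and 2 members passed, and without E6.5 null 3 there were 4, of which 3 were higher. Visceral endoderm markers summed to 7862 to 12735 CPM in the other 3 E5.5 null and to 171 to 7310 CPM in E6.5 null epiblasts, and their part was not tested.

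From E6.5 to E7.5 no member of 87 passed by edgeR in null embryos (0.113% higher and 0.036% lower among all 19460 genes), with 6 higher and 2 lower at an unadjusted p under 0.05 (3.42% and 4.71%) and 2 lower by DESeq2. Without overlap 3 were higher and 1 lower (3.77% and 2.13%), and with an absolute log2 fold change over 1 no member was called (0.0668% and 0.036%). There 75 members were positive, with a median of 0.17 against -0.01 over all genes. *Rps4l* read 89.7 to 197 CPM (median 126) in E6.5 null and 49.98, 66.2 and 65.0 CPM in E7.5 null epiblasts (-1.13 ± 0.23, adjusted p = 0.0901 by edgeR). *Rpl10l* had no count in all 3 E7.5 null libraries, at least 27.1-fold lower than in E6.5 null with 3 counts allowed in each library. Without E6.5 null 3 there were 2 members lower and past the threshold, and without E6.5 null 1 there was 1.

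Null and WT epiblasts were then compared within each stage. At E5.5 no member of 88 passed (0% of all 18690 genes passed in either direction), with 1 higher and 3 lower at an unadjusted p under 0.05 (1.25% of all genes in each direction) and 0 by DESeq2. The median was -0.06 against -0.01 over all genes, and it was -0.13 without the library labelled E5.5 null 1 and 0.01 without E5.5 null 3. The smallest unadjusted p among the members was that of *Rps4x*, a small subunit gene of the X chromosome, which read 299, 435, 418 and 287 CPM in null and 590 and 578 CPM in WT epiblasts. The groups did not overlap (-0.71 ± 0.19), and the adjusted p was 0.999 by edgeR. Without overlap 8 of the 88 members were lower and 2 higher, against 6.9% and 4.64% of all genes.

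At E6.5 nearly all members were counted lower in null epiblasts, and none passed. Of 87 tested 82 had a negative and 5 a positive log2 fold change, with a median of -0.18 against -0.01 over all genes. By edgeR 0 passed, as did 0% of all 17095 genes, and by DESeq2 0, while at an unadjusted p under 0.05 there were 39 lower and 0 higher members, against 3.51% lower and 4.76% higher among all genes. *Rpl39*, which lines the exit tunnel, read 55.9 to 112 CPM (median 82.6) in null and 91.9 to 148 CPM (median 109.5) in WT epiblasts (-0.45 ± 0.12, adjusted p = 0.358 by edgeR). *Rps27* read 25.4 to 75.2 CPM (median 63.3) and 55.4 to 139 CPM (median 78.0), a change of -0.73 ± 0.21 (adjusted p = 0.384 by edgeR). Null and WT libraries overlapped for every member, and 0.0234% of all genes were higher and 0.0351% lower without overlap. The stalk proteins *Rplp0*, *Rplp1* and *Rplp2* stood at -0.12, -0.26 and -0.18. The 3 positive members with the smallest p were *Rps3a1*, *Rpl7a* and *Rpl36al* (0.16, 0.21 and 0.04).

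Both the split by depth and the set of libraries left out here were chosen after the data were seen. Depth was uneven at E6.5, with over 40000000 counts in libraries 1, 2 and 3 of each genotype. The median of the members was -0.25 among these, -0.15 among the 5 null and 6 WT below and -0.18 with the depth group as a term, and no member passed in any of the 3. The libraries above include null 2, null 3 and WT 3, with the fewest genes detected, and null 1, with extraembryonic ectoderm markers at 1136 CPM against at most 98.8 CPM in the other E6.5 libraries and the lowest *Pou5f1* of the stage (178 CPM), whose part was not tested. The median was -0.13 without E6.5 null 3, the library with the lowest share. Without E6.5 null 3, 4 and 8 and E6.5 WT 3, the 4 libraries with visceral endoderm marker sums over 4600 CPM, it was -0.10 and none passed by edgeR.

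At E7.5 the sign turned. Of 85 members tested 77 were positive and 8 negative, with a median of 0.14 against -0.02 over all genes, and 0 passed by edgeR, against 0.767% higher and 1.35% lower among all 19680 genes. At an unadjusted p under 0.05 there were 31 higher and 0 lower members (8.81% and 10.9% of all genes), and 3 passed by DESeq2, all higher. *Rpl6*, of the large subunit, read 994, 1015 and 987 CPM in null and 886 to 985 CPM (median 914) in WT epiblasts (0.19 ± 0.05, adjusted p = 0.0564 by edgeR). *Rpl7a* read 243, 461 and 261 CPM in null and 29.8 to 173 CPM (median 101.5) in WT epiblasts (1.84 ± 0.45, adjusted p = 0.0603 by edgeR). *Rpl34* read 52.2, 30.2 and 52.3 CPM against 19.0 to 42.0 CPM (0.81 ± 0.22, adjusted p = 0.0623 by edgeR). Null and WT were apart for *Rpl6*, *Rpl7a*, *Rps6* and *Rpl11*, 4 higher members, against 1.39% of all genes higher and 2.45% lower. The study's own rule, an adjusted p under 0.05 with an absolute log2 fold change over 1, held 0.0813% of all genes higher and 1.09% lower and no member.

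These E7.5 values lay close to the threshold. Leaving out E7.5 WT 3 gave 23 members higher and past it, leaving out E7.5 WT 9 gave 1, and leaving out any other library of the stage gave 0. The shares of all genes that passed in these fits are not given here, so the 23 cannot be set against them. E7.5 WT 3, on which the change from 0 to 23 rests, stood apart from the other WT of its stage, with epiblast markers at 6958 CPM against at most 3567 CPM and the lowest visceral endoderm and extraembryonic ectoderm sums (493 and 56.9 CPM). Summed with copies 2 members passed, *Rpl7a* at 0.28 ± 0.06 (adjusted p = 0.0311 by edgeR) and *Rplp0* at 0.21 ± 0.05 (adjusted p = 0.0376 by edgeR). The *Rpl7a* change thus went from 1.84 alone to 0.28 summed. Visceral endoderm markers summed to 84.8 to 354 CPM in E7.5 null and 493 to 4884 CPM in E7.5 WT epiblasts, and 10 epiblast markers to 5061 to 6961 CPM and 1320 to 6958 CPM. Their part in these values was not tested.

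The difference of the genotype effect between E7.5 and E6.5 was tested as an interaction. No member of 88 passed by edgeR (0.28% higher and 0.276% lower among all 22122 genes), 5 passed by DESeq2, all higher, and 44 were higher and 0 lower at an unadjusted p under 0.05 (6.51% and 7.63% of all genes). With an absolute log2 fold change over 1 none was called (0.185% higher and 0.258% lower among all genes). The median was 0.30 against -0.01 over all genes, and 82 members were positive. *Rps14* stood at 0.42 ± 0.12 (adjusted p = 0.0812 by edgeR) and *Rpl6* at 0.33 ± 0.09. Without the 4 E6.5 libraries with the most visceral endoderm markers, also chosen after the data were seen, 2 members passed, both higher, and the median was 0.25.

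**Figure D5:**
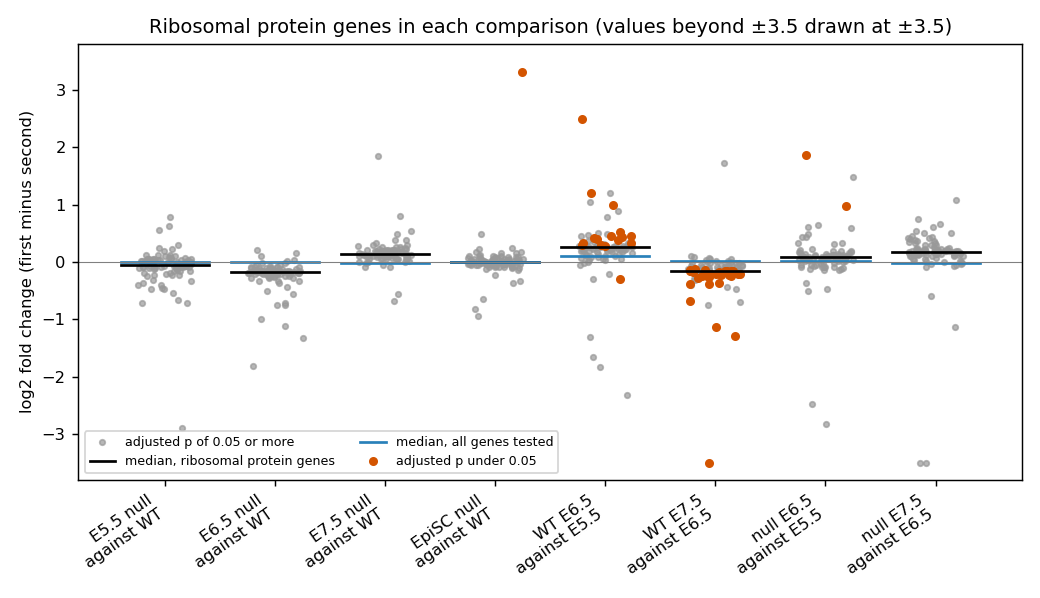
Log2 fold change (y axis, first group minus second) of each member in the 8 comparisons (x axis). Orange points have an adjusted p under 0.05 by edgeR, grey points do not, black bars are the median of the members and blue bars that of all genes tested. The black bar lies below the blue one in E6.5 null against WT (-0.18 against -0.01) and above it in E7.5 null against WT (0.14 against -0.02), without a member past the threshold, and *Rpl10l* is drawn at the lower edge where it lies beyond.

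Of the X-linked members *Rps4x*, *Rpl10*, *Rpl36a* and *Rpl39*, the first was the only member to fall from E5.5 to E6.5 in WT embryos (590 and 578 to 438 to 491 CPM, -0.29 ± 0.08, adjusted p = 0.0361 by edgeR), and it did not pass when either E5.5 WT library was left out (adjusted p = 0.294 and 0.0618 by edgeR). The labels give no sex. *Ddx3y*, a gene of the Y chromosome, was at 0 CPM in both E5.5 WT and in E5.5 null 2 and 3. It was at 29.7 and 47.9 CPM in E5.5 null 1 and 4. At E6.5 it was at 57.2 to 63.7 CPM in null 2, 3, 5 and 8 and at most 4.41 CPM in null 1, 4, 6 and 7. *Xist*, the RNA of the silenced X, was at 1271 and 1099 CPM in both E5.5 WT, at 1152 and 1028 CPM in E5.5 null 2 and 3, and at 34.5 and 38.9 CPM in E5.5 null 1 and 4. *Rps4x* read 435 and 418 CPM in the former null pair and 299 and 287 CPM in the latter. At E6.5 the null epiblasts with *Xist* under 50 CPM (2, 3, 5 and 8) read *Rps4x* at 282, 267, 467 and 352 CPM, and those with *Xist* over 1000 CPM (1, 4, 6 and 7) at 532, 441, 446 and 505 CPM. The E6.5 WT epiblasts read 438 to 491 CPM at either level of *Xist*. In E6.5 null 2, 3, 5 and 8 *Rpl10* read 368, 195, 512 and 405 CPM, and in null 1, 4, 6 and 7 it read 463, 535, 509 and 548 CPM. The share of counts on all members was 3.05%, 2.60%, 3.71% and 3.22% in null 2, 3, 5 and 8. In null 1, 4, 6 and 7 the share was 3.55%, 3.29%, 3.79% and 3.84%. The part of sex and of the share in these values was not tested.

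In EpiSCs 1 member of 85 passed, *Rpl26*, against 0.0434% higher and 0.0868% lower among all 20736 genes. It was also past an absolute log2 fold change of 1, as were 0.0434% of all genes higher and 0.0627% lower. It read 198 and 220 CPM in the null lines 2 and 6 and 21.05 and 20.3 CPM in the WT lines 8 and 13 (3.32 ± 0.09, adjusted p = 7.49e-05 by edgeR). *Gm15772* read 199 and 220 CPM in the null and 416 and 410 CPM in the WT lines, and summed with its copies *Rpl26* changed by -0.07 ± 0.08 (adjusted p = 0.899 by edgeR). *Rplp0* read 859 and 854 CPM in null and 635 and 574 CPM in WT lines (0.48 ± 0.09, adjusted p = 0.158 by edgeR), with *Gm8730* at 177 and 171 against 419 and 371 CPM, and -0.06 ± 0.09 summed. *Rps2* read 83.7 and 79.4 CPM in null and 210 and 71.8 CPM in WT lines, so WT line 8 stood apart from the other 3. Null line 2 held *Xist* at 1625 CPM and *Ddx3y*, of the Y chromosome, at 0.0946 CPM. The other lines held them at 1.41 to 2.53 CPM and 83.1 to 93.9 CPM, and the part of sex was not tested. The median over the members was -0.01, as over all genes. Without null line 6 there were 2 members past the threshold and without WT line 8 or 13 there were 3, and the lone line of that genotype is then assumed to vary like the others. Of the members 19 were higher and 6 lower without overlap, against 21.4% and 18.8% of all genes.

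The starts of the members carried the pyrimidine run more often than those of genes at large. In RefSeq (GRCm38.p6) 64 members had a listed start, and in 29 of them (45.3%) a C followed by at least 4 bases that are each C or T began within 5 bases of it on the strand of the gene, against 5718 of 27025 genes (21.2%). The windows below show 9 bases before and 20 bases from the annotated start of 3 members that rose from E5.5 to E6.5, all on the plus strand, with the run in capitals: *Rpl12* at chr2:32961703-32961731, *Rpl14* at chr9:120571508-120571536 and *Rps2* at chr17:24720054-24720082. Of the other risers named above with a listed start, *Rpl13a*, *Rpl15* and *Rpl7a* also had the run, and *Rpl5*, *Rpl6*, *Rplp0* and *Rpl27* did not. The capitals begin at the first C that met this rule within 5 bases of the start. In *Rpl14* the bases just before the capitals are also C or T. A match describes these letters alone.
Rpl12: gcaggatccgtCTTTTCggctttcggctc
Rpl14: gccctCTCTCTTCTCgctgagcgccgcca
Rps2: tcgagatctcgcgCTTCTTggagcactat

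Other genes of the pathway were read beside the members, and their counts stand against the shares of all genes that passed, 5.15% higher and 4.09% lower from E5.5 to E6.5 and 12.7% higher and 12.3% lower from E6.5 to E7.5 in WT embryos, and 0.767% higher and 1.35% lower between genotypes at E7.5. Of 35 ribosome biogenesis genes, which make and process ribosomal RNA, 5 rose from E5.5 to E6.5 of WT embryos (*Nop56*, *Polr1b*, *Ubtf*, *Polr1a* and *Ncl*, by 0.35 to 0.51) and 27 fell from E6.5 to E7.5, with a median of -0.45 and *Polr1b*, a subunit of RNA polymerase I, at -0.73 ± 0.11. At E7.5 6 of the 35 were higher in null than in WT epiblasts (*Nop58*, *Nop14*, *Rrs1*, *Bop1*, *Wdr12* and *Nol6*, by 0.36 to 0.60), all 35 were positive and the median was 0.40. Of 20 translation genes tested, among them elongation factors, 5 rose from E5.5 to E6.5 and 10 fell from E6.5 to E7.5 in WT embryos, and at E7.5 0 passed between genotypes by edgeR with 20 positive, 11 at an unadjusted p under 0.05 and a median of 0.18. Of 77 mitochondrial ribosomal protein genes, 1 rose and 1 fell from E5.5 to E6.5, 4 rose and 17 fell from E6.5 to E7.5 in WT embryos, where the 17 were a larger share than among all genes and the others a smaller one, and 0 passed between genotypes at E7.5 by edgeR (20 higher at an unadjusted p under 0.05, against 8.81% of all genes, median 0.20).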

How the data were processed

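The authors trimmed reads with Trim Galore, aligned them with HISAT2 to GRCm38/mm10 and summarised them with StringTie, and deposited raw counts per gene in 1 table for the 35 epiblasts and 1 for the 4 EpiSC lines. The annotation release, the strand setting and the handling of reads with several matches were not given in the sources used here, and each bears on members with copies. Members and gene lists were chosen with earlier results of these data known.

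CPM is the count scaled to a library total of 1000000, while fold changes are on TMM-scaled counts. Genes kept by filterByExpr (minimum count 10, minimum total 15) were tested with edgeR 4.0.16 (R 4.3.3), robust quasi-likelihood, in the libraries of each comparison, and p-values were adjusted by Benjamini-Hochberg over the whole table of tested genes. The interaction was fitted over E6.5 and E7.5. DESeq2 1.42.0, RLE scaling, other filters, a block by replicate number, 1 fit over 35 epiblasts and leaving out each library were alternatives. The scripts were tested on simulated counts. Named members were the 10 smallest p in each direction among those past the threshold (3 where none passed), paralog pairs, the stalk, the highest and lowest members and those with most counts on rows named -ps; *Rps4x* with *Xist*, *Rps3a1* and members named for their copies were added after their values were seen, and some members that the rule names are not reported here. Summing with copies, the split by depth and 2 sets of libraries left out together were also chosen after the data were seen. Copies were found with blastn 2.17.0 among GENCODE vM21 transcripts.

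Numbers shared by null and WT libraries were not treated as pairs in the main tests. The correlations of their deviations ran from -0.351 to 0.285. These values cannot show whether libraries of the same number share a litter or batch.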

Additional observations from a re-analysis of the deposited data

Results flagged for a closer look

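Single libraries stood apart from their group in 10 of 80 sets of 4 to 9 libraries (20 measures), by the gap to the nearest other library against the range of the group. Chance gives about 1 in 20 for independent measures set in advance. Some of these members were chosen after their values were seen, and several flags fell on the same library. That rate therefore cannot be set against the 10. The share of counts on ribosomal protein genes was 3.22% in E6.5 WT 3, with the next WT library at 3.67%. In the same library *Rpl10l* stood at 36.1 CPM and *Rpl39* at 147.6 CPM, both the highest of E6.5 WT. *Rpl26* was at 483 CPM in E6.5 null 5 and at 520.2 CPM in E6.5 WT 4, with the next libraries of their groups at 47.4 and 51.7 CPM. *Rpl10l* was at 1.20 CPM in E7.5 WT 7. *Rps14* was at 262 CPM in the library labelled E5.5 null 1. *Rpsa*, the laminin receptor precursor of the small subunit, was at 1714 CPM in E5.5 null 2. *Rpl12* was lowest, at 331 CPM, in E6.5 null 3, the library with the lowest share, and *Rpl22l1* was at 56.3 CPM in E6.5 null 2.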

How the results depend on the processing

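Of 1229 alternative values of single members and of the share by group, 1079 kept direction and side of the threshold or, for a share, stayed within the SD. Of the rest, 91 no longer passed, 20 passed only in the alternative and 38 moved. A member moved where its sign changed without passing in either fit, and a share where it left the SD of its group. Only 1 reversed: *Rpl26* in EpiSCs, summed with copies, at -0.066 (adjusted p = 0.899 by edgeR). The numbers of members that passed moved as follows, and the cause was not tested. The shares of all genes that passed with DESeq2 and the other alternatives are not given here. These numbers therefore cannot be told apart from a change in calls among all genes. For E7.5 null against WT, 0 became 3 with DESeq2, 1 with a mean count of at least 50, 1 without the robust option, 1 summed with rows named -ps, 2 summed with copies, and up to 23 without 1 library (lowest 0, and 1 without E7.5 WT 9). For EpiSCs, 1 became 2 with DESeq2, 2 with no filter, 0 summed with copies and 2 to 3 without 1 line, with the median between -0.030 and 0.046. For WT E6.5 against E5.5, 16 became 10 with RLE, 8 with no filter, 10 with a mean count of at least 50, 5 with all 35 epiblasts in 1 fit, and 1 to 27 without 1 library. For WT E7.5 against E6.5, 35 became 15 with all epiblasts in 1 fit. For null E6.5 against E5.5, 2 became 4 with DESeq2, 1 with rows named -ps, 0 with copies, 4 in 1 fit and 4 without E6.5 null 3. For null E7.5 against E6.5, 0 became 2 with DESeq2, 1 in 1 fit and 1 to 2 without 1 library. The interaction went from 0 to 5 with DESeq2 and to 2 without the 4 E6.5 libraries with most visceral endoderm markers. With the replicate number as a block, WT E6.5 against E5.5 had 2 and null E6.5 against E5.5 had 0 members past the threshold, and no count of another comparison moved by over 1.5 times. The labels give only a number: of the 8 pairs at E6.5, 4 had correlations over 0.1 and 1 correlated best with its own number. The 2 E5.5 WT, 3 E7.5 null and 2 lines per EpiSC genotype limit what these comparisons can detect. Members under 10 CPM rest on few counts.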
